A study of Mus musculus with 5 samples.

Results

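The cells described here were chosen as blood endothelial cells of mouse dorsal skin, from single-cell RNA sequencing of 5 libraries, by the counts of a few genes. Most of the unsorted cells chosen in this way did not carry an endothelial profile, as described below. A cell entered when Pecam1, Cdh5, Flt1, Emcn and Egfl7 together gave at least 5 UMIs (unique molecular identifiers, each standing for 1 captured RNA molecule). It also had to hold at most 1 UMI of the lymphatic genes Prox1, Mmrn1, Flt4 and Lyve1, and under 20 UMIs of Krt14 and Krt5 per 10000 UMIs. In all, 515 of 34473 kept cells met this rule, 472 of them in unsorted skin and 43 in a sorted library. The 11 genes of the rule are therefore given as a description, with no test.

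Unsorted skin came from female mice at postnatal day 46. Of its libraries, 2 are labelled Lepr-Cre;mTmG;Smo+/- and 2 are controls titled Lepr-Cre;mTmG, a genotype that the design text writes with Smo added. The remaining library held GFP-positive cells sorted from back skin of Lepr-Cre;mTmG females at postnatal day 50. Every mouse thus carried Lepr-Cre, a recombinase made where the leptin receptor gene is or was active, and mTmG, a Rosa26 reporter that changes from membrane tomato to membrane GFP after recombination. Smo encodes the signal transducer of the Hedgehog pathway. What kind of Smo allele the mice carried is not stated. Libraries of 1 genotype are described as technical replicates, so every p-value below measures the spread between preparations and not between animals. The rule kept 129 and 150 cells in libraries labelled Smo+/-, 98 and 95 in control libraries and 43 in the sorted library.

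Blood endothelial cells line arteries, capillaries and veins. Arterial cells are known for Notch signalling and gap junctions, capillary cells for fatty acid uptake and exchange, and venous cells for capturing leukocytes through selectins and adhesion molecules. In skin, vessels surround hair follicles and enlarge while follicles grow. Pecam1 and Cdh5 encode adhesion molecules of endothelial contacts, Flt1 a receptor for VEGF, Emcn a sialomucin of capillary and venous surfaces, and Egfl7 a secreted protein of the vessel wall.

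Many endothelial genes hold binding motifs of ETS transcription factors in their promoters, and 3 of the 5 markers had a promoter entry in RefSeq. Flt1 and Emcn, which had a single window each, are shown because they helped to choose the cells, while Egfl7 had 3 windows with 3, 2 and 0 matches of the motif below. The window of Flt1 lies at chr5:147725962-147726261 on the minus strand and that of Emcn at chr3:137340828-137341127 on the plus strand of GRCm38.p6. Capitals mark AGGAAG or its reverse complement CTTCCT, an ETS core with flanking letters. Each window holds 2 matches, and 11613 of 32851 windows of the same 300 bases (35.4%) hold at least 1, so a match here describes the letters and no more.
Flt1: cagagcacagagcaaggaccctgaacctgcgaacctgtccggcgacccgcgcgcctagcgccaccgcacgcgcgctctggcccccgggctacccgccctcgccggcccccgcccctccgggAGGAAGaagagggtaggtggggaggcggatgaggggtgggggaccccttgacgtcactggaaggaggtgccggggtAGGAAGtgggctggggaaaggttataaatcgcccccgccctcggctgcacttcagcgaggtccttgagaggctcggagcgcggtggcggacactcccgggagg
Emcn: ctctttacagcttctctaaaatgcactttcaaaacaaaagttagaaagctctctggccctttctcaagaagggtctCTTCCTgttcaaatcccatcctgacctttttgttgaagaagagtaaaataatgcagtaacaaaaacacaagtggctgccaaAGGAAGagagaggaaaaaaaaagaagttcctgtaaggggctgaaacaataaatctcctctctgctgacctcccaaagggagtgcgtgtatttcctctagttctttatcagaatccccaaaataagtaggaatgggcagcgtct

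The deposited matrices held 11563 and 11816 barcodes in libraries labelled Smo+/-, 10748 and 11072 in control libraries and 455 in the sorted library. Totals ran between 147245343 and 171197845 UMIs in unsorted libraries and reached 1138206 in the sorted one. Pairs of unsorted libraries shared 117 to 192 barcodes, and the sorted library shared 0 with any. Smo RNA outside the rule stood at 18.2 and 17.2 CPM (UMIs of a gene per 1000000 UMIs summed over cells) in libraries labelled Smo+/- against 12.7 and 12.9 CPM in control libraries, so it was not lower under that label.

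Most of the unsorted cells that met the rule did not carry an endothelial profile. Clustering gave 8 clusters, and in 2 of them (clusters 2 and 3) at least 3 of the 5 markers stood at least 2-fold up. Here and below, such a fold is taken against all unsorted rule cells outside the cluster. These clusters held 204 of 472 cells (43.2%), with 48 and 66 in libraries labelled Smo+/- and 45 and 45 in control libraries. Their cells held a median of 22 marker UMIs in 6633.5 UMIs, and 191 of 204 expressed at least 3 markers. The other 268 cells held a median of 6 marker UMIs in 20924 UMIs, that is 3.28 per 10000 against 30.6 per 10000 in clusters 2 and 3. Of these cells, 134 held UMIs of a single marker and 23 held at least 3 markers.

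The leading genes of the remaining clusters belonged to cells other than blood endothelium. Cluster 1, with 122 cells, was led by Inhba and Dio2, and all 7 dermal papilla markers stood at least 2-fold up in it. Cluster 4, with 45 cells, was led by genes that include Cxcl9, Ccl11 and the fibroblast collagen gene Col1a1. Cluster 5, with 41 cells, was led by genes that include Sfrp5, Pcp4, Lypd2 and the keratin gene Krt19, and cluster 6, with 36 cells, by genes that include Rasd1, the Wnt inhibitor gene Notum and Rasgrf1. Cluster 7, with 15 cells, was led by genes that include Nts and the lymphatic gene Mmrn1, although 14 of its cells held at least 3 blood markers. Its blood markers summed to 2511 CPM, beside 3088 and 3399 CPM in clusters 2 and 3. These 15 cells thus carried endothelial markers, and they are counted among the cells outside clusters 2 and 3. Cluster 8, with 9 cells, was led by genes that include Klk7, Cst6 and the cornified envelope gene Sprr1b. Clusters 2 and 3 were picked by the markers of the rule, which cannot support the label, and results are given for them beside those for all rule cells.

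At the threshold itself, 113 unsorted cells held exactly 5 marker UMIs, and 8 of them fell in clusters 2 and 3. Just outside it, 171 cells held exactly 4 marker UMIs, of which 9 held at least 3 of the markers. Among the 226 cells with 10 or more marker UMIs, 171 (75.7%) fell in clusters 2 and 3.

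**Figure D1:**
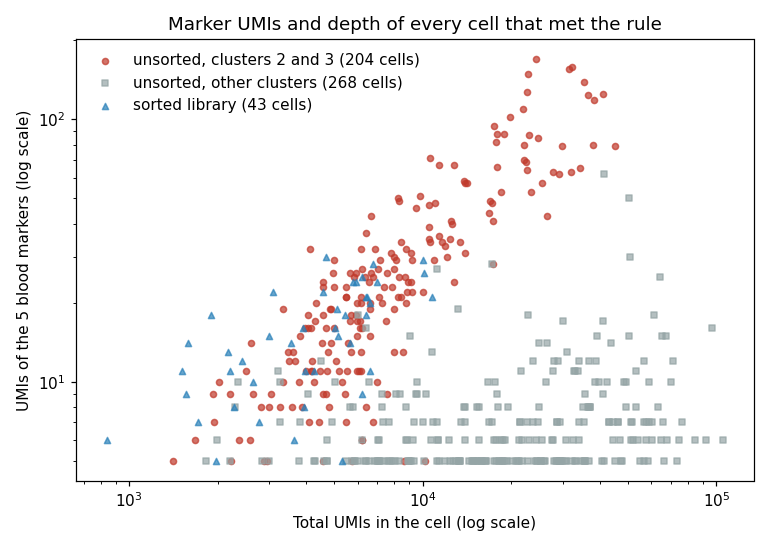
Each point is 1 cell that met the rule, with its total UMIs (x, log scale) against its summed UMIs of the 5 blood markers (y, log scale). Red circles are the 204 unsorted cells of clusters 2 and 3, grey squares the 268 other unsorted cells and blue triangles the 43 sorted cells. Most grey squares lie along the lower edge at a median of 6 marker UMIs over a wide range of depth, while red circles have a median of 22.

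Levels of the marker genes in clusters 2 and 3 are given as a description, since these genes chose the cells and the clusters. No result about genotype is drawn from them. Pecam1 stood at 952 and 813 CPM in libraries labelled Smo+/- and at 901 and 794 CPM in control libraries. Cdh5 stood at 1162 and 959 CPM in libraries labelled Smo+/- and at 1057 and 911 CPM in control libraries. Flt1 stood at 545 and 654 CPM in libraries labelled Smo+/- and at 692 and 532 CPM in control libraries. For these 3 genes the ranges of the genotypes overlapped, as they did for Egfl7 at 853 and 573 CPM in libraries labelled Smo+/- and 617 and 1040 CPM in control libraries. Emcn was lower throughout, with 89.7 and 42.0 CPM in libraries labelled Smo+/- and 43.5 and 19.5 CPM in control libraries. Prox1, the factor that sets lymphatic identity, reached at most 4.67 CPM, and Lyve1 was at 0 in all 4 libraries.

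Cluster 2, with 103 cells, was arterial-like. It held 11 of the 12 arterial markers at least 2-fold above all other unsorted rule cells, most of which lay outside clusters 2 and 3. These markers included Gja5 and Gja4 (gap junction proteins), Dll4 and Jag1 (Notch ligands), Hey1 (a Notch target) and Sox17. The 12 arterial markers summed to 2922 CPM in cluster 2, to 1741 CPM in cluster 3 and to at most 700 CPM in the remaining clusters. No fold against cluster 3 alone was taken gene by gene. Its 8 leading genes were Syt15, Cytl1, Gkn3, Fam107a, Bmx, Ccm2l, Tm6sf1 and Chp2. It also held 3 of 10 venous markers at that level, Vwf, Icam1 and Lrg1, and 1 of 12 capillary markers, Fabp4. These genes shaped the clustering and describe the cluster without testing it.

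Cluster 3, with 101 cells, was left without a vessel name. Its leading genes included Pgf, a placental growth factor that binds Flt1, and Csf2rb, Gdf15, Traf1, Bcl6b, Jam2 and Trpv4. It held 4 of the 5 blood markers, 3 of 12 arterial, 2 of 8 tip cell, 1 of 12 capillary and 1 of 10 venous markers at least 2-fold up. Markers of other cells were up as well, namely Acta2 and Myh11 of mural cells, Cd3d and Cd3g of T cells, the leukocyte gene Ptprc and the haemoglobin gene Hbb-bs. Over clusters 2 and 3, 27 of 204 cells held at least 3 UMIs of mural markers and 14 held at least 3 UMIs of T cell markers. A doublet caller marked 4 of the 472 rule cells.

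The arterial genes stood at clear levels in every unsorted library. Gja4 had 346 and 288 CPM in libraries labelled Smo+/- against 211 and 323 CPM in control libraries. Fbln5, an elastic fibre protein of arteries, had 803 and 757 CPM in libraries labelled Smo+/- against 523 and 553 CPM in control libraries, and this log2 change of 0.55 did not pass (edgeR quasi-likelihood test, adjusted p = 0.255). Sema3g, a secreted guidance cue, had 168 and 135 CPM in libraries labelled Smo+/- against 119 and 139 CPM in control libraries.

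Capillary genes gave a mixed picture. Fabp4, which carries fatty acids, had 2336 and 2850 CPM in libraries labelled Smo+/- against 3094 and 2539 CPM in control libraries. By contrast Kdr, the main signalling receptor for VEGF, had 8.75 and 10.9 CPM in libraries labelled Smo+/- against 25.2 and 3.91 CPM in control libraries. The capillary gene Gpihbp1, which anchors lipoprotein lipase, gave UMIs in 1 library only, at 2.19 CPM. Of the 12 capillary genes, 5 had enough counts to be tested.

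Genes of leukocyte capture and cytokine genes were at high levels in clusters 2 and 3 of both genotypes. Vcam1, an integrin ligand, had 1652 and 1692 CPM in libraries labelled Smo+/- against 1916 and 1673 CPM in control libraries. Icam1, another such ligand, had 1969 and 2067 CPM in libraries labelled Smo+/- against 2104 and 2148 CPM in control libraries. The neutrophil attractant gene Cxcl1 had 7718 and 7243 CPM in libraries labelled Smo+/- against 5647 and 6368 CPM in control libraries. For Cxcl1 the genotypes did not overlap, but the log2 change of 0.33 did not pass (adjusted p = 0.482). Il6 had 2358 and 2134 CPM in libraries labelled Smo+/- against 2381 and 3081 CPM in control libraries. Hspa1a, a heat shock chaperone gene, had 5042 and 4634 CPM in libraries labelled Smo+/- against 6069 and 6446 CPM in control libraries.

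Selectins were carried by single cells. Selp, which encodes P-selectin, had 427 and 10.9 CPM in libraries labelled Smo+/- against 523 and 149 CPM in control libraries. One cell held 193 of 195 and 3 of 7 Selp UMIs in the libraries labelled Smo+/-, and 209 of 228 and 70 of 76 in the control libraries. Ackr1, a chemokine receptor of venules, came from 1 cell in each of 3 libraries, with 13 UMIs in a library labelled Smo+/- and 12 and 10 UMIs in control libraries.

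The sorted cells carried the endothelial markers broadly, together with some capillary and transport genes. The 43 cells were 9.95% of the 432 kept sorted cells (95% Clopper-Pearson interval 7.30 to 13.2%). They held 196988 UMIs in all, with a median of 4580 UMIs against 2058 in the other sorted cells, and 41 of 43 held at least 3 markers. Pecam1 stood at 1203 CPM, Egfl7 at 868, Emcn at 640, Cdh5 at 371 and Flt1 at 340 CPM, and the 4 lymphatic genes of the rule were at 0. Cldn5, a tight junction gene of endothelium that the rule did not use, stood at 1528 CPM against 137 CPM in the other sorted cells. A count of 0 in these cells allows up to 15.2 CPM. Intervals and this limit cover counting error only.

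Some capillary and transport genes were at high levels in the sorted cells. Aqp1, Cd300lg and Kdr are members of the list of 12 capillary genes, and levels of its other members in the sorted cells are not given. Plvap, the diaphragm protein of fenestrae and caveolae, stood at 2046 CPM (exact Poisson interval 1851 to 2256) and gave UMIs in 40 of 43 cells. Scarb1, a receptor for high density lipoprotein, stood at 1650 CPM (1475 to 1839) with UMIs in 42 of 43 cells. Aqp1, a water channel, stood at 1345 CPM (1188 to 1517). The shear stress factor gene Klf2 stood at 1726 CPM, the chemokine gene Cxcl12 at 787 CPM, Cd34 at 777 CPM and the capillary gene Cd300lg at 300 CPM. Kdr stood at 213 CPM with UMIs in 26 cells. In the other sorted cells Plvap stood at 446 CPM and Scarb1 at 162 CPM.

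The arterial genes Gja4, Fbln5 and Sema3g and the cytokine genes Cxcl1 and Csf3 were scarce among the sorted cells. Icam1 and the chemokine gene Cxcl12 were not. Levels of the other genes of the arterial list in the sorted cells are not given. Gja4 stood at 10.2 CPM (1.23 to 36.7), Fbln5 at 30.5 CPM (11.2 to 66.3) and Sema3g at 15.2 CPM, while Gkn3, Cytl1 and Csf3 were at 0. Cxcl1 stood at 20.3 CPM (5.53 to 52.0), Vcam1 at 20.3 CPM and Icam1 at 330 CPM. Cldn5 was at a similar level on each side, with 1528 CPM in sorted cells and 1280 and 1462 CPM in libraries labelled Smo+/- and 1309 and 1304 CPM in control libraries. Unsorted cells of clusters 2 and 3 held Plvap at 98.4 and 99.6 CPM in libraries labelled Smo+/- and at 98.6 and 123 CPM in control libraries. They held Scarb1 at 26.3 and 20.2 CPM in libraries labelled Smo+/- and at 43.5 and 21.5 CPM in control libraries.

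No test was made between sorted and unsorted cells. The sorted library is a single one, from mice of another age, captured with version 2 instead of version 3 of the 10x Genomics chemistry and selected for GFP, and these differences cannot be told apart. RNA of other cells was present too. The 8 fibroblast markers summed to 1564 CPM in the sorted endothelial cells, the 7 papilla markers to 1416 CPM and the 4 haemoglobin genes to 4010 CPM. The part of such RNA in the levels above was not tested.

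**Figure D2:**
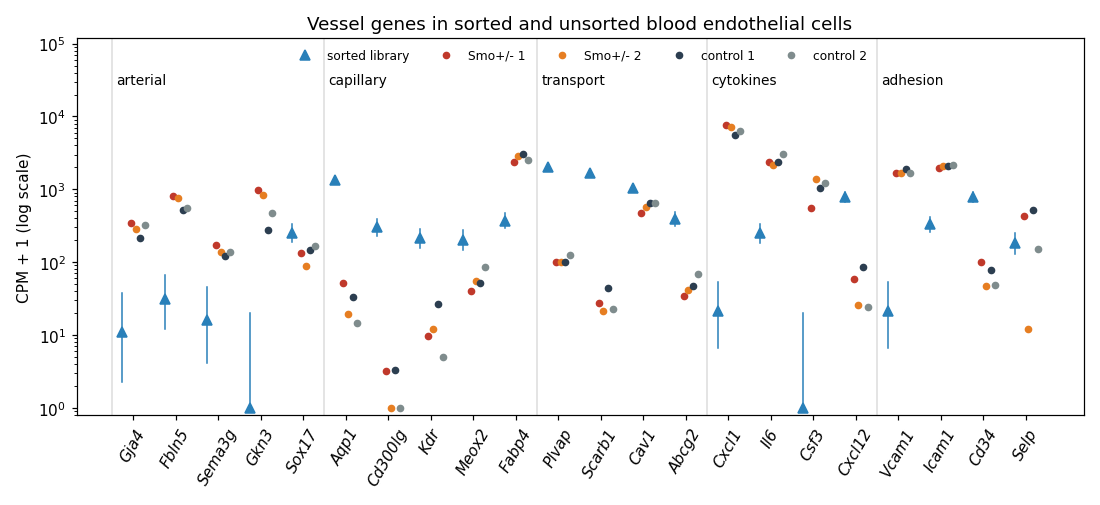
Levels of 22 vessel genes as CPM + 1 (log scale), grouped as arterial, capillary, transport, cytokine and adhesion genes. Blue triangles give the sorted cells with their exact Poisson interval, and circles give the 4 unsorted libraries for clusters 2 and 3. Aqp1, Cd300lg, Kdr, Plvap and Scarb1 lie higher in the sorted cells, and Gja4, Fbln5, Gkn3, Cxcl1 and Vcam1 lie higher in every unsorted library. These are examples. The capillary genes Fabp4 and Meox2 and the arterial gene Sox17 are also drawn, and Gkn3 is drawn with the arterial genes without being on their list.

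Rule cells, and those of clusters 2 and 3, took a larger share of kept cells in the libraries labelled Smo+/-. No p-value under the smallest possible one could be reached. Rule cells were 1.51 and 1.70% of kept cells in libraries labelled Smo+/- against 1.18 and 1.13% in control libraries (two-sided exact permutation test, p = 0.333, the smallest that 2 against 2 libraries allow). Clusters 2 and 3 were 0.562 and 0.748% in libraries labelled Smo+/- against 0.544 and 0.536% in control libraries (exact p = 0.333). The groups did not overlap in either measure, although 1 library labelled Smo+/- lay close to the controls in the second. Other classes shifted too, so this is not particular to these cells. Kept cells numbered 8545 and 8818 in libraries labelled Smo+/- against 8278 and 8400 in control libraries. Lymphatic cells among them numbered 272 and 250 against 144 and 177. Cells rich in Krt14 and Krt5 (keratin-high cells) went the other way, with 1538 and 1637 against 2180 and 2160. A share of recovered cells reads the yield of each cell type, and fewer cells of a type cannot be told apart from a lower yield.

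Between genotypes, 5 genes changed in clusters 2 and 3. They were 5 of 5235 genes tested (0.0955%), 3 of them higher (0.0573%) and 2 lower (0.0382%) in libraries labelled Smo+/-. A gene was called at an adjusted p under 0.05 in edgeR's quasi-likelihood test together with an absolute log2 change of at least 1. The median log2 change over all tested genes was 0.00. The genes were Prss22, Col5a2 and Gkn3 on the higher side and Areg and Ly6d on the lower side.

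Prss22, a serine protease gene (chromosome 17, 23993534 to 23998100, GRCm38), was detected in clusters 2 and 3 of libraries labelled Smo+/- only. It had 26 and 45 UMIs in libraries labelled Smo+/- against 0 and 0 UMIs in control libraries, and 15 of 48 and 21 of 66 cells carried it. Keratin-high cells held it in 25.2 and 24.1% of cells in libraries labelled Smo+/- and in 2.11 and 2.22% in control libraries. The level was at least 20.4-fold higher, taking 3 UMIs over the control group as the limit of a count of 0 (adjusted p = 0.00417). The same direction was called in lymphatic cells, with a log2 change of 4.89, and in all cells outside the rule, with 3.85. The effect in clusters 2 and 3 was not shown to differ from that in cells outside the rule (interaction, adjusted p = 0.298).

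Col5a2, a fibrillar collagen gene (chromosome 1, 45374321 to 45503282), had 74 and 93 UMIs in libraries labelled Smo+/- against 26 and 28 UMIs in control libraries. Scaled to CPM this was 162 and 145 CPM in libraries labelled Smo+/- against 59.6 and 54.7 CPM in control libraries, with no overlap. The log2 change was 1.43 (SE 0.22, adjusted p = 0.0341). UMIs were spread over 28 of 48 and 42 of 66 cells in libraries labelled Smo+/- and over 15 of 45 and 15 of 45 cells in control libraries, and keratin-high cells held a UMI in 8.19 to 14.3% of cells. Outside the rule the log2 change was 0.80, which stayed under the size required, and in lymphatic cells it was -0.56. The 8 fibroblast markers, other genes of matrix-making cells, summed to 273 and 850 CPM in clusters 2 and 3 of libraries labelled Smo+/- against 105 and 162 CPM in control libraries. Their part in the Col5a2 difference was not tested. The call was lost without either control library (adjusted p = 0.0573 without control 1 and 0.0857 without control 2).

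Gkn3, a gastrokine family gene (chromosome 6, 87383256 to 87388935), is a leading gene of cluster 2. It had 445 and 533 UMIs in libraries labelled Smo+/- against 121 and 238 UMIs in control libraries, that is 974 and 830 CPM against 277 and 465 CPM. The libraries labelled Smo+/- lay above both controls, with a log2 change of 1.28 (SE 0.20, adjusted p = 0.0377). Thinned to 2000 UMIs per cell, 55.3 and 60% of cells held a Gkn3 UMI in libraries labelled Smo+/- against 32.6 and 51.1% in control libraries. Keratin-high cells held it in at most 0.0695% after thinning, and lymphatic cells held none. Without control 1 the log2 change was 0.96 and the adjusted p 0.0505.

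Areg, the growth factor amphiregulin (chromosome 5, 91139599 to 91148432), had 3 and 5 UMIs in libraries labelled Smo+/- against 58 and 84 UMIs in control libraries. The log2 change was -4.30 (SE 0.33, adjusted p = 1.06e-04), the lowest p of the comparison. Most control UMIs came from single cells: 1 cell held 46 of 58 and another 65 of 84. With any number of UMIs, 2 of 48 and 5 of 66 cells carried Areg in libraries labelled Smo+/- against 8 of 45 and 5 of 45 cells in control libraries. Keratin-high cells, in which Areg is common, held it in 45.3 and 43.0% of cells in libraries labelled Smo+/- and in 43.7 and 43.5% in control libraries, at a median of 14795 to 15817 UMIs per cell. The fall was larger in clusters 2 and 3 than in cells outside the rule, by 3.80 on the log2 scale (interaction, adjusted p = 2.73e-21). It was not shown to differ from that in lymphatic cells (adjusted p = 0.177).

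Ly6d, a surface protein gene used as a keratinocyte and lymphoid marker (chromosome 15, 74762056 to 74763620), had 27 and 23 UMIs in libraries labelled Smo+/- against 80 and 84 UMIs in control libraries. The log2 change was -1.89 (SE 0.25, adjusted p = 0.0108), and the groups did not overlap. With DESeq2 its adjusted p was 0.0509. In clusters 2 and 3, 39.6 and 30.3% of cells held a UMI in libraries labelled Smo+/- against 80.0 and 77.8% in control libraries, at library medians of 6495.5 to 7014 UMIs. In keratin-high cells the shares were 90.6 and 90.8% in libraries labelled Smo+/- against 95.8 and 96.1% in control libraries. Outside the rule Ly6d fell by 1.75 on the log2 scale, and the change in clusters 2 and 3 was not shown to differ from it (interaction, adjusted p = 1). After thinning to 2000 UMIs, 14.9 and 12.3% of cells of clusters 2 and 3 in libraries labelled Smo+/- and 37.2 and 35.6% in control libraries held Ly6d, below the 75.0 to 89.7% of keratin-high cells.

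The genotype effect in clusters 2 and 3 differed from that in cells outside the rule for 93 of 16810 genes (0.553%) and from that in lymphatic cells for 7 of 7646 genes (0.0916%). For all rule cells it differed from cells outside the rule for 800 of 17576 genes (4.55%). In all rule cells the log2 changes were 6.0 for Prss22, 0.82 for Col5a2, 1.40 for Gkn3, -1.16 for Areg and -0.04 for Ly6d (adjusted p = 0.852 for Ly6d). Of the 5 genes above, Areg alone was called in the first of these tests and none in the second.

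**Figure D3:**
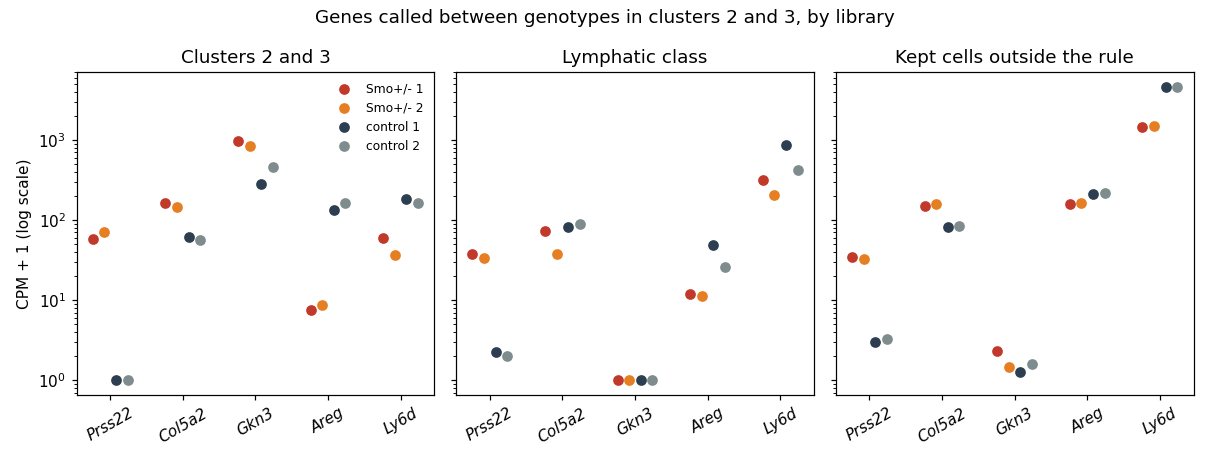
Levels of the 5 genes called between genotypes, as CPM + 1 (log scale), in clusters 2 and 3, in lymphatic cells and in all kept cells outside the rule. Each circle is 1 library, in red and orange for Smo+/- and in dark blue and grey for control. Prss22 lies higher and Ly6d lower for Smo+/- in all 3 panels, Gkn3 is at 0 in lymphatic cells, and Areg separates most in clusters 2 and 3.

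None of the 26 gene lists, of vascular genes and of others such as interferon, heat shock and cell cycle genes, held a called gene in clusters 2 and 3. Gkn3, a leading gene of the arterial-like cluster 2, was called but is not on these lists. The lists held 318 genes, of which 223 were tested and 0 called, with 26 at an unadjusted p under 0.05 and a median log2 change of 0.03. Over all genes 365 of 5235 had an unadjusted p under 0.05 and 0.0955% were called, so the absence of calls among 223 genes does not set the lists apart. DESeq2 called 4 genes over all genes in this comparison. All 12 arterial genes were tested, with a median log2 change of 0.16. Notch genes had a median of -0.03 over 10 of 12, junction genes 0.05 over 9 of 12, and receptors of VEGF, angiopoietins and BMP 0.05 over 11 of 13. Venous genes had a median of -0.59 over 8 of 10. The tip cell list had 3 of 8 tested, with Pgf at 127 and 154 CPM in libraries labelled Smo+/- against 665 and 256 CPM in control libraries. This log2 change of -1.67 did not pass (adjusted p = 0.193), and 1 cell held 86 of 290 Pgf UMIs in control 1.

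Other cells' markers moved between the libraries in these sums. Mural markers summed to 269 and 763 CPM in libraries labelled Smo+/- against 617 and 1226 CPM in control libraries, and T cell markers to 72.2 and 37.4 CPM against 156 and 99.7 CPM. Haemoglobin genes summed to 85.3 and 616 CPM in libraries labelled Smo+/- against 11.5 and 23.5 CPM in control libraries. Macrophage markers stayed between 35.8 and 75.6 CPM, with 3 of 8 at 0, and adipocyte and melanocyte markers were at or near 0. The part of mural, T cell and haemoglobin RNA in the genotype results was not tested.

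Over all 472 rule cells the count of called genes was far larger. There 611 of 10713 genes were called (5.7%), with 419 higher (3.91%) and 192 lower (1.79%) in libraries labelled Smo+/-. The 15 higher genes with the largest changes included Dleu7, Mansc4, Pcp4, Prss22, Slc6a13, Sfrp5, Clic6, Stra6, Lypd2, Col14a1, Krt19, Smoc1, Slc22a3 and Igfbp2. Of these, 9 are among the 20 leading genes of cluster 5, whose 41 cells were 20 and 20 in libraries labelled Smo+/- and 0 and 1 in control libraries. Sfrp5, a secreted Wnt antagonist, had 293 and 178 CPM in libraries labelled Smo+/- against 0.927 and 6.82 CPM in control libraries on the scale of the fit.

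The 15 lower genes were Hist1h2al, Rasgrf1, Hist2h4, Gt(ROSA)26Sor, Emx2os, Col6a6, A230065H16Rik, Slc30a2, Grm4, Aff2, Notum, Tex15, Nrn1, 2700046A07Rik and Adamtsl2. Of these, 7 are among the 20 leading genes of cluster 6, whose 36 cells were 2 and 3 in libraries labelled Smo+/- and 16 and 15 in control libraries. Notum, a Wnt deacylase, had 70.5 and 93.7 CPM in libraries labelled Smo+/- against 553 and 545 CPM in control libraries on the scale of the fit. In clusters 2 and 3 only 1 gene of each of these lists had enough counts to be tested. Of the 318 list genes, 282 were tested in all rule cells, with 23 higher and 7 lower, beside 3.91% higher and 1.79% lower over all genes tested.

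Lepr, the leptin receptor gene whose locus drives the recombinase, was detected in blood endothelial cells of every library. In clusters 2 and 3 it gave 20 and 32 UMIs in libraries labelled Smo+/- against 18 and 18 UMIs in control libraries, that is 43.8 and 49.8 CPM against 41.3 and 35.2 CPM. These levels lay close together, and the log2 change of 0.32 did not pass (adjusted p = 0.907). At 2000 UMIs per cell, 6.38 and 9.23% of cells held a Lepr UMI in libraries labelled Smo+/- against 6.98 and 4.44% in control libraries. Without thinning the shares were 35.4 and 37.9% against 26.7 and 24.4%. Keratin-high cells held Lepr in 0.451 to 0.695% of thinned cells, under every value of clusters 2 and 3.

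Set against lymphatic cells, no difference in Lepr was shown. Lymphatic cells, 843 in number, had 65.5 and 48.7 CPM in libraries labelled Smo+/- and 51.0 and 53.4 CPM in control libraries, and 8.77 to 13.6% of them held a UMI after thinning. The planned comparison over all rule cells gave a log2 difference of 0.35 in favour of rule cells (SE 0.15, adjusted p = 0.104), and clusters 2 and 3 gave -0.31 (SE 0.19, adjusted p = 0.230), the opposite sign. In the sorted cells Lepr stood at 157 CPM (107 to 223) with UMIs in 19 of 43 cells, against 250 CPM in the other sorted cells. Cells outside the rule had 33.2 and 27.6 CPM in libraries labelled Smo+/- against 10.0 and 9.1 CPM in control libraries, a log2 change of 1.57 that was called. The effects in clusters 2 and 3 and in cells outside the rule differed by -1.21, which did not pass (interaction, adjusted p = 0.180). Of 11 genes of the leptin pathway, 8 were tested and 0 called, with a median log2 change of 0.05. Stat3, the main transcription factor downstream of the receptor, had 606 and 621 CPM in libraries labelled Smo+/- against 550 and 670 CPM in control libraries.

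Hedgehog genes were near the detection limit. Smo itself gave 3 and 1 UMIs in clusters 2 and 3 of libraries labelled Smo+/- against 7 and 4 UMIs in control libraries, and 2 UMIs in the sorted cells. Of 10 Hedgehog genes only the receptor gene Ptch1 was tested, with 8.75 and 43.6 CPM in libraries labelled Smo+/- against 16 and 25.4 CPM in control libraries (adjusted p = 0.946). The target gene Gli1 had 2.19 and 3.11 CPM in libraries labelled Smo+/- and was at 0 in control libraries, which does not reach the limit of a count of 0.

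The reporters were present in most blood endothelial cells, with tomato the more common. Of the 204 cells of clusters 2 and 3, 94 held eGFP and tomato together, 92 tomato alone, 5 eGFP alone and 13 neither. More eGFP than tomato was found in 13 cells. Tomato stood at 910 and 725 CPM in libraries labelled Smo+/- against 807 and 694 CPM in control libraries. eGFP stood at 475 and 560 CPM in libraries labelled Smo+/- against 282 and 151 CPM in control libraries, without overlap, and its log2 change of 1.29 did not pass (adjusted p = 0.108). Single cells weighed on these sums, with the highest cells at 84 and 132 UMIs in libraries labelled Smo+/- and at 83 and 35 UMIs in control libraries. Gt(ROSA)26Sor, the RNA of the locus that holds the reporter, had 2.19 and 3.11 CPM in libraries labelled Smo+/- against 22.9 and 23.5 CPM in control libraries. A YFP sequence was counted too, at 6.56 and 7.78 CPM in libraries labelled Smo+/- and at 0 in control libraries.

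At equal depth, 27.7 and 24.6% of the cells of clusters 2 and 3 held an eGFP or YFP UMI in libraries labelled Smo+/- against 18.6 and 20% in control libraries (exact permutation test, p = 0.333). Keratin-high cells held it in 9.39 to 12.3%, and lymphatic cells in 14.2 to 26.4%. Without thinning the shares were 45.8 and 51.5% in libraries labelled Smo+/- against 51.1 and 44.4% in control libraries (exact p = 0.667), below the keratin-high cells of the same library in 3 of 4 libraries (50.4 to 54.5% in these deeper cells). A reporter UMI in a single cell thus did not set these cells apart from keratin-high cells at full depth. Over all rule cells the thinned shares were 39.4 and 42.3% in libraries labelled Smo+/- against 33.7 and 33.7% in control libraries (exact p = 0.333). YFP was counted only in libraries labelled Smo+/-, so these shares do not count the same sequences in both genotypes. The part of YFP in the differences between genotypes was not tested. In the sorted library, selected for GFP, eGFP stood at 9955 CPM (9519 to 10406) in the endothelial cells against 5556 CPM in the other cells, and 42 of 43 cells held it.

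**Figure D4:**
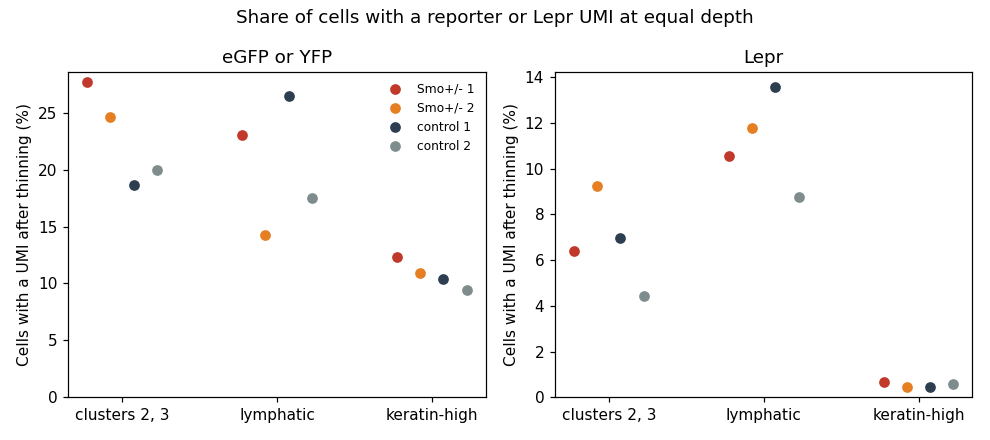
Share of cells with at least 1 UMI of eGFP or YFP (left) and of Lepr (right) after each cell was thinned to 2000 UMIs, in percent. Each circle is 1 library, for clusters 2 and 3, lymphatic cells and keratin-high cells. For both measures the keratin-high cells lie lowest, and clusters 2 and 3 overlap with lymphatic cells for the reporter. YFP was counted only in libraries labelled Smo+/-.

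Cells of clusters 2 and 3 with a reporter UMI held more RNA of mural genes than those without, and less RNA of selectins, of Ackr1 and of T cell genes. A reporter UMI here is any eGFP or YFP UMI at full depth, and cells with neither eGFP, YFP nor tomato were left out. At that depth such a UMI did not set these cells apart from keratin-high cells, as given above. The word reporter-positive below thus names the UMI and not a lineage. Over all rule cells 1025 of 9511 genes were called (10.8%). In clusters 2 and 3 alone, 55 of 4018 genes tested were called (1.37%), 30 higher (0.747%) and 25 lower (0.622%) in reporter-positive cells. The reporter-positive sums were deeper, at 276918 and 432370 UMIs in libraries labelled Smo+/- and 281874 and 333632 in control libraries. Cells without a reporter UMI summed to 180197 and 205391 in libraries labelled Smo+/- and to 132575 and 147683 in control libraries. In libraries labelled Smo+/- these sums came from 22 and 34 reporter-positive cells against 26 and 30 others. In control libraries they came from 23 and 20 cells against 17 and 19. Reporter-positive cells were thus deeper on average, and the part of depth in the calls of clusters 2 and 3 was not tested. The largest increases included those of Crispld2, Igfbp5, Myh11, Rgs5, Tpm2, S1pr3, Acta2, Cryab and Gm13889. Myh11, Tpm2 and Acta2 encode contractile proteins of smooth muscle, and Rgs5 is a marker of pericytes. Rgs5, for example, gave 362 UMIs in reporter-positive cells against 9 UMIs in the others. The mural markers summed to 401 and 1080 CPM in libraries labelled Smo+/- and 940 and 1801 CPM in control libraries among reporter-positive cells, against 66.6 and 112 CPM and 30.2 and 176 CPM among the others.

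The largest decreases were in Ltb, Ackr1, Cd163l1, Selp, Olr1, Ccr2, BC018473, Sele, Bcl2a1b and Cd3d. Cd3d is a T cell receptor component and Ltb a lymphocyte cytokine, and T cell markers summed to 3.61 and 2.31 CPM in libraries labelled Smo+/- and 71.0 and 56.9 CPM in control libraries among reporter-positive cells. Among cells without a reporter UMI they summed to 178 and 112 CPM in libraries labelled Smo+/- and to 317 and 217 CPM in control libraries. Selp gave 13 UMIs in reporter-positive cells against 493 UMIs in the others, with a log2 change of -5.91 (SE 0.64, adjusted p = 1.70e-05), and rests on the single cells named above. Sele, which encodes E-selectin, gave 7 UMIs against 76 UMIs, of which 52 came from 1 cell.

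Without the cells that held at least 3 mural UMIs, 16 of 3251 genes were called (0.492%), 2 higher (0.0615%) and 14 lower (0.431%). Mural markers then summed to 38.1 to 71.2 CPM in reporter-positive cells and to 30.2 to 52.6 CPM in the others. Areg, also higher with all cells of clusters 2 and 3 (log2 change 2.07, adjusted p = 0.0187), was then higher in reporter-positive cells, with 130 UMIs against 12 UMIs (log2 change 2.49, adjusted p = 0.0372), of which 1 and 1 lay in libraries labelled Smo+/- and 48 and 80 in control libraries. In each control library 1 cell gave most of these, 46 of the 48 and 65 of the 80 UMIs, and the difference was not tested without these 2 cells. The 12 arterial genes, 11 of them tested in the comparison of all cells of clusters 2 and 3, gave 0 calls there and a median log2 change of 0.35. Among the other vessel lists in that comparison, 4 of 7 tested leukocyte adhesion genes were lower (Ackr1, Cd34, Sele and Selp), 3 of 8 tested venous genes were lower (Ackr1, Sele and Selp) and 1 of 5 tested capillary genes was lower (Aqp1). Over all genes tested there, 25 of 4018 were lower (0.622%). Selp, Sele and Ackr1 rest on few cells, as given above. In library Smo+/- 2, Selp gave 7 UMIs in reporter-positive cells against 0 UMIs in the others. Of the Notch genes Hes1 and Rbpj were called, 1 higher and 1 lower. Lepr did not pass between reporter-positive and other cells, with a log2 change of 0.38 (adjusted p = 0.893).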

How the data were processed

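Single-cell RNA was captured from dorsal skin in 5 libraries with 10x Genomics 3′ chemistry (version 2 for sorted and version 3 for unsorted cells), per the labels' protocols. The authors deposited raw UMI counts per gene and barcode. Builds mm10 and GRCm38 and the tools Scanpy 1.6.0, Seurat 3.2.2 and Cell Ranger (2.1.1 and 3.1.0) are listed in the submitters' processing notes, and per the file headers the unsorted matrices came from Cell Ranger 3.1.0. Strand handling in counting is not given in the sources used here.

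Cells were kept with 500 (sorted library, 300) to 8000 genes and at most 10% mitochondrial UMIs. Unsorted rule cells were clustered on 1500 variable genes, 20 components and 15 neighbours with Leiden (scanpy 1.11.5, leidenalg 0.10.2) at resolution 0.5. Scrublet ran on unsorted libraries. Its automatic threshold called 0 doublets in control 1, where the median threshold of the other libraries was used, and no doublet caller ran on the sorted library. Lymphatic cells had at least 5 UMIs of the lymphatic rule genes, at least 1 of Cdh5 and few keratin UMIs. Keratin-high cells had at least 20 keratin UMIs per 10000 and no blood marker. Thinning left out 4 cells of clusters 2 and 3 and 352 keratin-high cells as too shallow.

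Counts were summed per library and class and tested with edgeR 4.0.16 (R 4.3.3; TMM, filterByExpr, quasi-likelihood test, Benjamini-Hochberg adjustment), with the library as a block for comparisons within libraries. Shares were compared by a two-sided exact permutation test. The fits were tested on simulated counts. CPM are computed from the summed counts, on the TMM scale only where the text says so. Genes were named as the 15 called with the largest change in each direction (10 for the reporter comparison) with at least 10 UMIs in each library of the higher group (in total for the reporter comparison), plus list members, Lepr, Smo, Hedgehog genes and the reporters. Some genes that met this rule are not reported here. The members and lists were chosen with earlier results of these data known. The restriction to clusters 2 and 3 and its alternatives were added after seeing the data. Libraries of a genotype differed beyond sampling noise (chi-square per degree of freedom of 2.02 to 4.72) and were counted as separate. Gene coordinates come from the GENCODE annotation of GRCm38, and promoters from RefSeq.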

Additional observations from a re-analysis of the deposited data

Results flagged for a closer look

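For 27 named genes the genotype effect in clusters 2 and 3 (Smo+/- over control, log2) differed from that in the kept cells outside the rule, by edgeR's interaction test with adjustment over 16810 genes, of which 93 were called (0.553%). The cells outside the rule are a mixture of cell types whose shares can differ between libraries, and the part of this in each value was not tested. For Areg the difference was -3.80, and in control libraries 46 of 58 and 65 of 84 of its endothelial UMIs came from single cells. For the vascular genes the differences were -1.43 for Fabp4, -1.49 for Vcam1, -1.63 for Pgf, -1.07 for S1pr1, -1.90 for Sox18, -2.33 for Nid1, -1.32 for Itga5, -1.26 for Ednrb, -1.69 for Ramp3 and -1.67 for Thbd. In clusters 2 and 3 themselves none of these vascular genes was called. The log2 changes there ran from -1.67 for Pgf and -1.47 for Ramp3 to 0.05 for S1pr1, with -0.10 for Fabp4 and -0.09 for Vcam1. In cells outside the rule they ran from 0.08 for Pgf and 0.29 for Ramp3 to 1.88 for Sox18. Fabp4 had 1.36 and Vcam1 1.42 there. Among cytokine and interferon genes the differences were -1.46 for Cxcl12, -1.54 for Cxcl10, -1.59 for Csf3, -2.33 for Ifit1 and -1.33 for Igtp. In control 2, 1 cell held 256 of 296 Ifit1 UMIs.

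Markers of other cells were among the 27. The differences were 4.25 for Notum, 2.18 for Dcn, 12.78 for Crabp1 (at 0 in control sums of clusters 2 and 3, so its size depends on the prior count), 1.84 for Krt15, -1.83 for Rgs5, -1.31 for Myh11, -1.31 for Tagln and -1.55 for Ptprc. For haemoglobin genes they were 2.93 for Hba-a1, 3.96 for Hba-a2 and 3.95 for Hbb-bs. Sums of such markers in clusters 2 and 3 were uneven between the libraries labelled Smo+/-. Haemoglobin genes summed to 85.3 and 616 CPM there against 11.5 and 23.5 CPM in control libraries. Fibroblast markers summed to 273 and 850 CPM against 105 and 162 CPM, and papilla markers to 10.9 and 66.9 CPM against 2.29 and 7.82 CPM. Set against lymphatic cells in place of all cells outside the rule, 7 of 7646 genes were called (0.0916%), and of the 27 genes these included Pgf with a difference of -1.93 (adjusted p = 0.0324) and Csf3 with -3.34 (adjusted p = 1.69e-04).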

How the results depend on the processing

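The calls in all rule cells depended on which cells entered. The main count of 611 became 296 with DESeq2, 40 with at least 10 marker UMIs, 48 with at least 3 of 5 markers, 33 with at least 10 marker UMIs per 10000, 3 without cells holding 3 UMIs of other cells' markers, 5 in clusters 2 and 3 and 12 in these without cells of at least 3 mural UMIs. It ran from 581 to 784 when each library was left out. In clusters 2 and 3 the main 5 calls became 3 with RLE size factors, 60 with no filter on low counts, 48 among cells with at least 3 of 5 markers, 12 without cells of at least 3 mural UMIs, and 12 to 58 when a library was left out (58 without Smo+/- 1, 47 without Smo+/- 2, 12 without control 1, 13 without control 2). The 800 genes with a genotype effect in rule cells that differed from other cells became 167 against lymphatic cells, 215 with at least 3 of 5 markers, 93 in clusters 2 and 3 and 7 in these against lymphatic cells, and ran from 626 to 791 with a library left out. For all rule cells 1025 genes were called between cells with and without a reporter UMI, which became 87 after thinning, 43 with at least 3 of 5 markers, 55 in clusters 2 and 3, 16 in these without cells of at least 3 mural UMIs, and 609 to 1002 with a library left out (664 without Smo+/- 2, 609 without control 2). The Lepr difference from lymphatic cells, 0.35 for all rule cells, reversed to -0.31 in clusters 2 and 3, where it was -0.24 in libraries labelled Smo+/- alone and -0.43 in control libraries alone. Resolution 1.0 gave 13 clusters. The cause was not tested for these changes beyond the cells or libraries that each left out.

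Of the 5 genes called in clusters 2 and 3, Areg and Prss22 were called in all 10 alternatives run there. Col5a2 missed the threshold with RLE factors, with DESeq2 and without either control library, Gkn3 with RLE factors, without control 1 and with at least 3 of 5 markers, and Ly6d with DESeq2. The cell shares and reporter shares kept their direction. Replicate numbers do not pair libraries in the labels, and deviations of same-numbered libraries correlated at 0.169 over genes in clusters 2 and 3 and at -0.003 in rule cells. With the replicate block the calls were 31 in clusters 2 and 3 and 590 in rule cells. Depth limits genes under about 3 UMIs a library, which includes most Hedgehog genes.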
